A study of Mus musculus with 12 samples.

Results

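Smooth muscle and pericyte genes of the mouse retina are described here, 10 in number out of 25124 genes in each of the deposited FPKM tables. The members were chosen by their gene symbols, with earlier results of the same libraries known, so their levels and differences below are a description, and the calls and counts by p-value given for them support nothing. Each was found in both tables with the same transcript, 10 of 10. They fall into 7 genes of the contractile apparatus (Acta2, Tagln, Myl9, Cnn1, Myh11, Des and Mylk) and 3 genes that mark pericytes (Pdgfrb, Rgs5 and Cspg4).

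The study asked how age changes the response of the retina to a mild rise of intraocular pressure (IOP). Whole retinas of wild type C57BL/6J mice were used, with no transgene or deletion in any group, in 12 poly(A) RNA-seq libraries that form 6 groups of 2. In the single-IOP table, 1 eye of 3-month-old or 18-month-old animals was raised to 30 mmHg for 1 h (3mo IOP, 18mo IOP), the opposite eye was left untreated (3mo control, 18mo control), and retinas were taken at day 2. In the repeated-IOP table, animals that were 3 months old at the start had 4 such elevations, given biweekly, and retinas were taken at day 2 after the last (4xIOP), with the untreated opposite eyes as 4xIOP control. An untreated eye of a treated animal is not an eye of an untreated animal, and the sources used here do not say which libraries share an animal or whether numbers mark animals. With 2 libraries per group, every spread below is the spread between these libraries, which may be technical in part. Libraries held between 39766241 and 59455049 mapped tags, of which 44.2% to 71.5% lay in exons. FPKM, the tags of a gene per kilobase of its transcript scaled to the mapped tags of the library, puts levels of different genes on a scale per length, though the libraries differ in how strongly short transcripts are represented. A count of 3 reads, taken as the limit of measurement, corresponds to 0.0252 to 0.0377 FPKM for a transcript of 2000 bases, and such limits cover counting error only.

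Mural cells wrap the blood vessels. Smooth muscle cells ring the arterioles and set their bore by contraction of smooth muscle actin and myosin, while pericytes, unusually dense in the retina, sit on the capillaries. Pericytes need the receptor PDGFRβ and its ligand from endothelium, and many express RGS5 and the proteoglycan NG2 (Cspg4) with little smooth muscle actin. Contractile genes are also expressed outside the retinal vessels, in smooth muscle of the ciliary body, iris and choroid and in myofibroblasts. In whole tissue, fewer cells of a type and less RNA per cell cannot be told apart.

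Transcription of contractile genes is classically driven by serum response factor, which binds the CArG box, a run of A and T flanked by CC and GG. The promoters of Acta2 and Myl9 are shown because these genes had the highest levels of the contractile group in 3mo IOP retinas. Promoters were in the RefSeq table for 7 of the 10 members (Acta2, Myl9, Cnn1, Des, Rgs5, Cspg4 and Mylk) and cover 250 bases before to 50 bases after the gene's start. Both are read 5′ to 3′ in the direction of the gene, with CArG boxes and boxes with 1 mismatch in capitals. The Acta2 promoter is chr19:34255324-34255623 on the minus strand and the Myl9 promoter chr2:156775214-156775513 on the plus strand, both of GRCm38.p6, the assembly also called mm10.
Acta2: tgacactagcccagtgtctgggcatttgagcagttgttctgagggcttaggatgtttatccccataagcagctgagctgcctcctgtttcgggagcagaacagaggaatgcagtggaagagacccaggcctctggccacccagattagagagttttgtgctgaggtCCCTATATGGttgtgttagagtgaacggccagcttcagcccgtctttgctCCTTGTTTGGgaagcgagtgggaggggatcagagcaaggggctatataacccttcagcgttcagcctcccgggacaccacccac
Myl9: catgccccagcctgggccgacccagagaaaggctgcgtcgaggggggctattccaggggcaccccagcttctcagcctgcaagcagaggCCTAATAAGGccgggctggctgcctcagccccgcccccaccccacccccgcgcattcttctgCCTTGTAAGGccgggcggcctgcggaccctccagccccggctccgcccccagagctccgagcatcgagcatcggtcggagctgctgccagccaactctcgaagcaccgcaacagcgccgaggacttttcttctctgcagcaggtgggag

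Of the 7 promoters, 1 held a complete CArG box on either strand, that of Myl9, with CCTAATAAGG starting 161 bases before the start. Of all 32851 promoters in the table, 1.63% held one. Boxes with 1 mismatch, searched after the complete boxes had been seen, stood in 3 of the 7 promoters and in 19.9% of all. Those of Acta2 were CCCTATATGG at 84 and CCTTGTTTGG at 34 bases before the start, and Myl9 had CCTTGTAAGG at 99 bases before it. Cspg4 held overlapping boxes of this kind farther out. These are matches of letters and not measured binding sites.

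The levels of the members differed widely. In 3mo control retinas the highest means were those of Myl9, which encodes the regulatory light chain of smooth muscle myosin (6.53 ± 2.88 FPKM, SD, n = 2), Mylk, the kinase that phosphorylates this light chain (5.87 ± 2.81 FPKM), and Rgs5, a brake on G protein signalling (5.73 ± 0.24 FPKM). The ranges of these 3 genes overlapped, so their order is not set. Myl9 (1077 bases) stood below Mylk (7775 bases) in 3mo control replicate 1, at 4.49 against 7.86 FPKM, and above it in replicate 2, at 8.57 against 3.89 FPKM, the library in which short transcripts had the greater share. Tagln, the actin-binding protein transgelin (2.18 ± 0.17 FPKM), and Acta2, smooth muscle α-actin (1.96 ± 0.41 FPKM), followed and overlapped with each other. Pdgfrb (0.48 ± 0.057 FPKM) and Myh11, the smooth muscle myosin heavy chain (0.30 ± 0.22 FPKM), came next with overlapping ranges. Des, the intermediate filament desmin (0.10 ± 0.052 FPKM), Cnn1, calponin (0.087 ± 0.033 FPKM), and Cspg4 (0.0865 ± 0.0035 FPKM) were lowest, with 6 to 34 reads per library. The ranges of these lowest 3 overlapped as well.

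**Figure D1:**
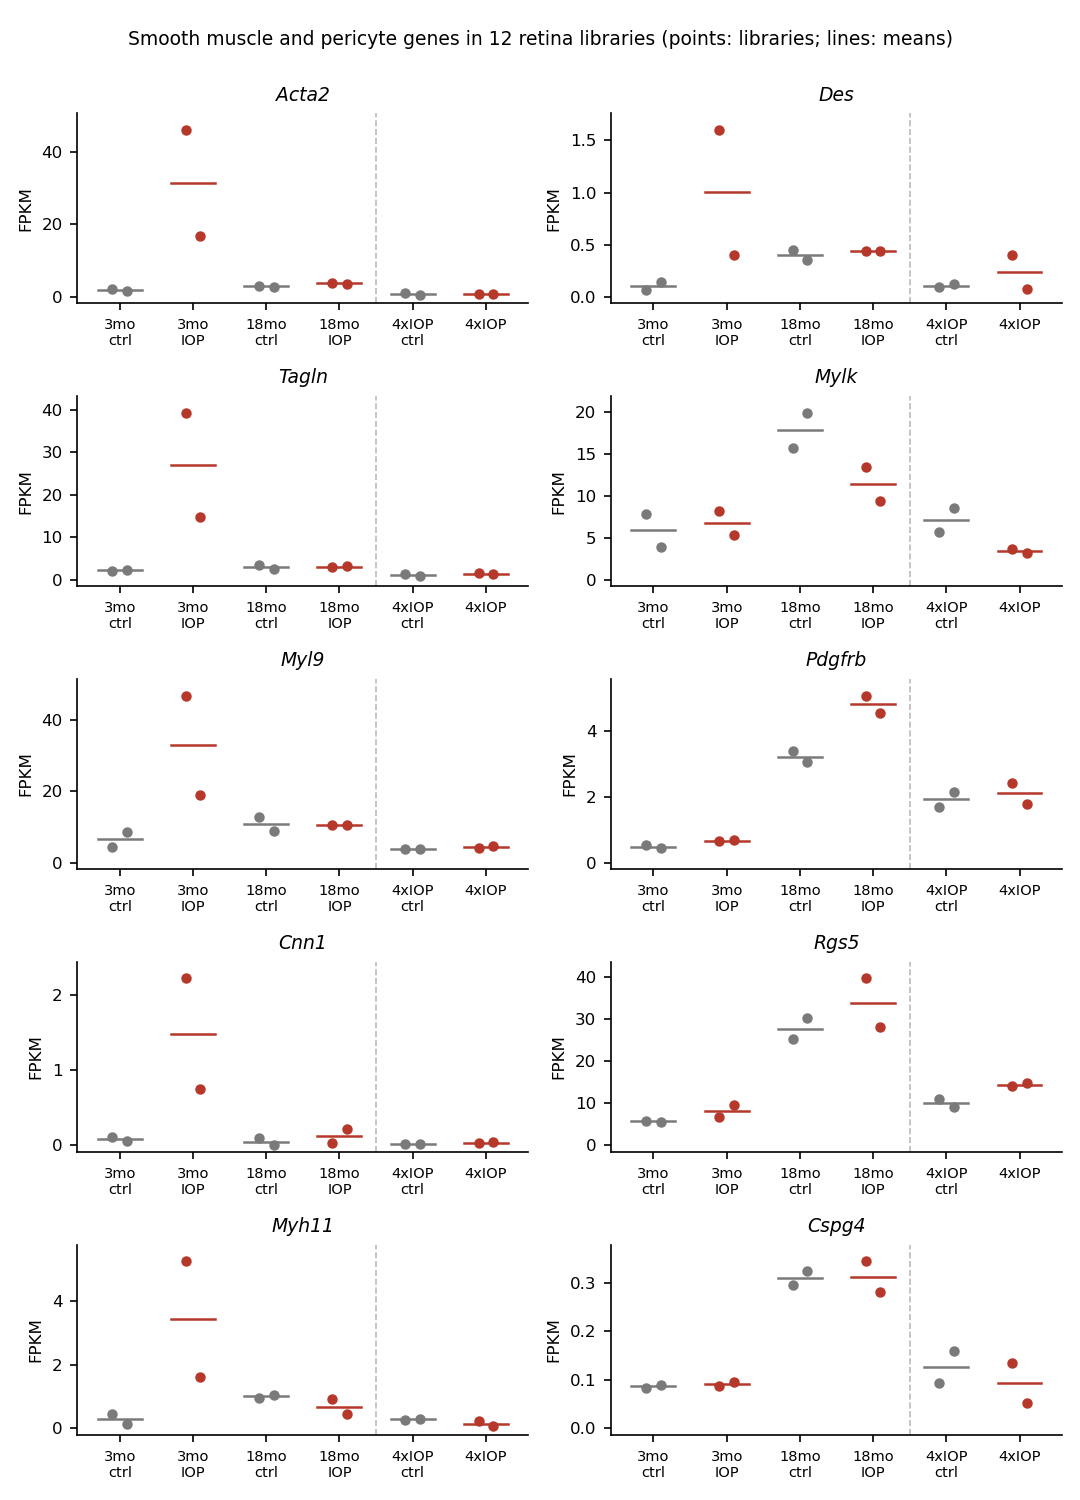
FPKM of each of the 10 genes (linear axes starting near 0) in all 12 libraries, with 1 point per library, a line at the mean of each group, control eyes in grey and IOP eyes in red. A dashed line parts the tables. Acta2, Tagln, Myl9, Cnn1, Myh11 and Des peak in 3mo IOP, while Pdgfrb, Rgs5, Cspg4 and Mylk stand higher in the 18mo groups than in the 3mo groups.

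The question of the first comparison was what a single IOP elevation does to these genes in young retinas. Acta2 measured 2.25 and 1.67 FPKM in the 3mo control libraries and 46.0 and 16.8 FPKM in the 3mo IOP libraries. Both IOP libraries lay far above both controls, a 16.1-fold difference of means, and the IOP libraries themselves differed 2.74-fold. Tagln measured 2.06 and 2.29 FPKM in the controls against 39.4 and 14.8 FPKM after IOP, a 12.5-fold difference of means. Again no library of one group reached into the other.

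Among the 4 libraries of 3mo retinas, the other structural genes of the contractile apparatus were also highest in 3mo IOP replicate 1, then in 3mo IOP replicate 2, with both controls below. Myl9 read 4.49 and 8.57 FPKM in control against 46.9 and 18.9 FPKM in IOP, 5.03-fold higher. Myh11 read 0.46 and 0.15 FPKM against 5.25 and 1.60 FPKM, 11.2-fold higher. Cnn1, which tempers the myosin motor on actin, read 0.11 and 0.064 FPKM against 2.21 and 0.752 FPKM, 17.1-fold higher but from only 6 and 9 reads in the controls. Des read 0.063 and 0.137 FPKM against 1.60 and 0.401 FPKM, 10.02-fold higher. In all 6 genes the 3mo IOP replicate 1 was the highest of the 12 libraries, between 2.49-fold (Myl9) and 4.00-fold (Des) above 3mo IOP replicate 2.

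Mylk did not share this pattern. It measured 7.86 and 3.89 FPKM in 3mo control and 8.24 and 5.35 FPKM in 3mo IOP, and the groups overlapped. The pericyte genes moved little. Pdgfrb read 0.523 and 0.443 FPKM in the controls against 0.649 and 0.669 FPKM after IOP, Rgs5 5.90 and 5.57 against 6.78 and 9.65 FPKM, and Cspg4 0.084 and 0.089 against 0.087 and 0.096 FPKM. The control and IOP groups did not overlap for Pdgfrb and Rgs5, with differences of means of 1.36-fold and 1.43-fold, and overlapped for Cspg4.

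Over the 10 members, 8 were higher without overlap in 3mo IOP than in 3mo control, and none lower, while 25.9% of all 20302 genes above 0 in the table were higher without overlap. In the limma fit on log2(FPKM + 0.5), 7 members passed the filter of a mean of 0.5 FPKM over the 8 libraries, and Cnn1, Des and Cspg4 did not. Calls required an adjusted p (Benjamini-Hochberg, over every gene tested) no larger than 0.05, together with a log2 difference of 1 or more, up or down. Acta2, with a log2 fold change of 3.54 ± 0.40 (SE), and Tagln, with 3.21 ± 0.39, were called higher, where 0.568% of all 13731 genes were called higher. Since the members were proposed with this contrast known, nothing is read from that count. Myl9 (2.17 ± 0.43) and Myh11 (2.14 ± 0.46) were not called, nor were Rgs5 (0.46 ± 0.24), Pdgfrb (0.24 ± 0.19) and Mylk (0.24 ± 0.34). With the crossed replicate block, a pairing chosen after the data were seen, both Myl9 and Myh11 were called higher too. The median log2 fold change of the 7 was 2.14, beside 0.13 over all genes tested. Without 3mo IOP replicate 1 the log2 fold change of Acta2 fell to 2.83, and neither Acta2 nor Tagln was called, as was the case without 3mo control replicate 1, with no filter on low values, and with voom on recovered reads. Myl9 was called as well without 3mo control replicate 2 and with the trend with transcript length removed (log2 fold change 2.05). The number of all genes called higher rests on single libraries too. It was 78 of 13731, fell to 0 without 3mo control replicate 1 or 3mo IOP replicate 1 and to 7 without 3mo IOP replicate 2, and rose to 253 without 3mo control replicate 2 and to 298 with the crossed replicate block. Leaving out an 18mo library, which enters through the shared spread, gave between 17 and 124. Without the filter, Cnn1 had a log2 fold change of 1.65 ± 0.35 and Des of 1.201 ± 0.36, neither called.

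Among 22 other contractile and actin cytoskeleton genes, 17 were tested and 1 was called higher in 3mo IOP, none lower, with a median log2 fold change of 0.69. The called gene was Tagln2, a transgelin found beyond smooth muscle, at 1.86 and 1.78 FPKM in the controls against 15.1 and 10.2 FPKM after IOP (log2 fold change 2.48 ± 0.33, adjusted p = 0.0319, limma). Of 19 other pericyte and mural genes, 11 were tested and none called, with the smallest p-values for Ndufa4l2 (log2 fold change 0.71 ± 0.20, adjusted p = 0.255, limma) and Mcam (0.85 ± 0.28, adjusted p = 0.353, limma). Of 12 regulators and ligands of mural cells, 8 were tested and none called. Here the smallest p-values belonged to Mef2c (-0.30 ± 0.21, adjusted p = 0.896, limma) and Edn1, endothelin 1 (0.21 ± 0.18, adjusted p = 0.94, limma).

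Markers of other tissues moved with the contractile genes in these libraries. The 7 contractile members summed to 17.3 and 16.8 FPKM in 3mo control and to 150 and 58.6 FPKM in 3mo IOP. The 10 genes of fibroblasts and sclera summed to 6.98 and 11.2 FPKM in 3mo control and to 70.3 and 27.7 FPKM in 3mo IOP, so the 3mo IOP libraries differed 2.54-fold in this list and 2.56-fold in the contractile sum. Of these fibroblast genes 6 were tested, and Lum, the collagen-binding proteoglycan lumican, was called higher (log2 fold change 2.45 ± 0.38, adjusted p = 0.0372, limma). The 7 genes of melanin pigment, made in the choroid, iris and ciliary body and in pigment epithelium, summed to 69.2 and 19.7 FPKM in 3mo control and to 481 and 234 FPKM in 3mo IOP. Of 6 tested, Mlana, a melanosome protein, was called higher (log2 fold change 3.59 ± 0.53, adjusted p = 0.0325, limma). None of the melanin pigment genes was at 0 in a 3mo library, and of the fibroblast genes Dpt was at 0 in 3mo control replicate 1.

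Other lists moved less with them from 3mo control to 3mo IOP. The melanin pigment sum differed 3.52-fold between the 3mo controls, whose contractile sums differed 1.03-fold. The 7 genes of pigment epithelium summed to 183 and 229 FPKM in 3mo control and to 268 and 100 FPKM in 3mo IOP, with none called of 6 tested. Skeletal muscle genes summed to 7.03 and 12.7 FPKM against 24.9 and 7.96 FPKM, with none called of 4 tested, and endothelium to 19.2 and 15.3 FPKM against 22.7 and 19.1 FPKM, with none called of 12. Between the 3mo IOP libraries, sums differed 2.67-fold for pigment epithelium, 3.13-fold for skeletal muscle and 2.06-fold for melanin pigment. The ratio seen in the fibroblast list was thus not particular to it. Of the remaining lists, none was called of 5 lens, 4 corneal, 5 blood and 7 rod genes tested, and of 6 glial genes Gfap, the filament protein of reactive glia, was called higher (log2 fold change 3.44 ± 0.40, adjusted p = 0.0271, limma). The calls of Tagln2, Lum, Mlana and Gfap were each lost without 3mo control replicate 1, without 3mo IOP replicate 1, with no filter, with quantile normalization and with voom on recovered reads. What part cells from outside the neural retina have in the contractile difference was not tested.

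**Figure D2:**
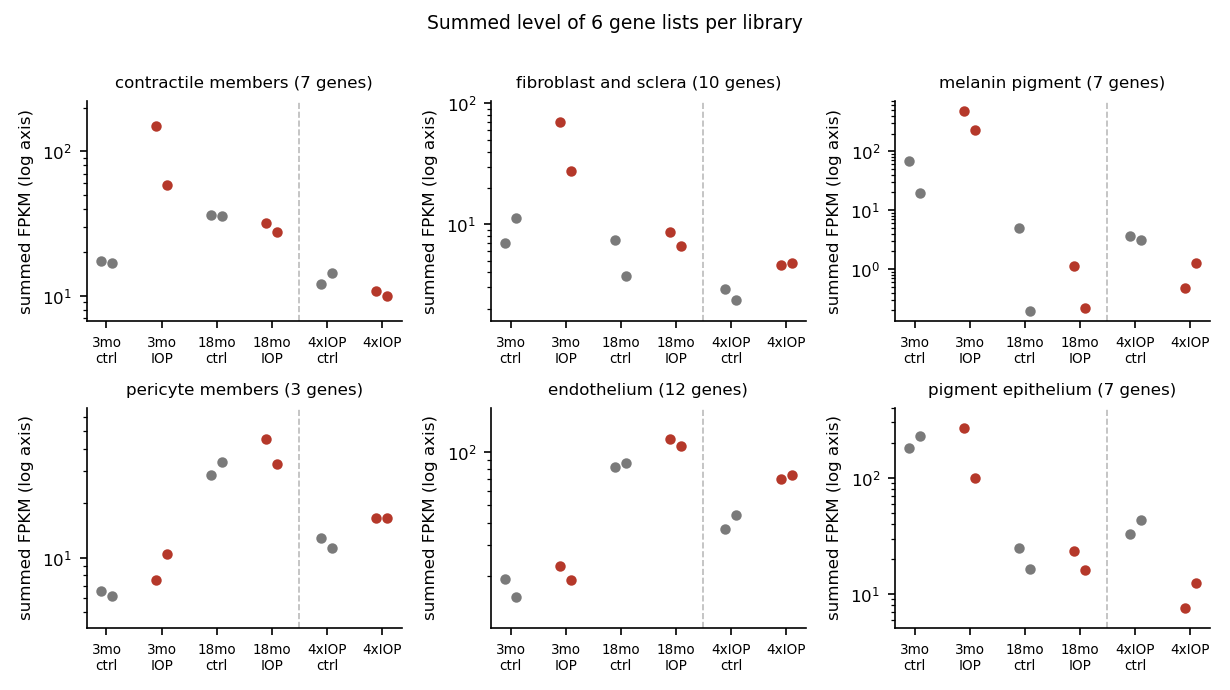
Summed FPKM per library (log axis, 1 point per library, control eyes grey, IOP eyes red) of the contractile members, the pericyte members and 4 marker lists, with a dashed line between the tables. The contractile sum peaks in 3mo IOP (58.6 to 150 FPKM), as do the sums of fibroblast and sclera genes (27.7 to 70.3 FPKM) and melanin pigment genes (234 to 481 FPKM), and the pericyte sum follows the endothelium sum across age.

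The genes whose levels were most like those of Acta2 over the 8 single-IOP libraries were named by Pearson's r of log2(FPKM + 0.5), as a description. Tagln, a member, ranked second of all genes with r = 0.99. The 8 highest genes that are not members were Aebp1 (r = 0.99), Grem1 (0.98), Emp3 (0.97), Eaf2 (0.96), Mdfic (0.96), Rab38 (0.96), Sod3 (0.96) and Tpm2 (0.96). Aebp1 encodes a collagen-binding matrix protein, Grem1 a secreted BMP antagonist, Rab38 a small GTPase of melanosome biogenesis, Sod3 the extracellular superoxide dismutase and Tpm2 a muscle tropomyosin. Aebp1, for example, measured 0.624 and 0.465 FPKM in 3mo control and 4.61 and 2.11 FPKM in 3mo IOP, and between 0.552 and 0.751 FPKM at 18mo. Of the members, Myh11 (r = 0.92) ranked 22 and Myl9 (r = 0.92) ranked 25. The r of Mylk was -0.18, of Rgs5 -0.28 and of Pdgfrb -0.31.

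These values rest on the 3mo IOP libraries, which stand apart from the other 6. Over the other 6 libraries r with Acta2 was 0.84 for Aebp1, 0.74 for Tagln and -0.27 for Rab38, and it was 0.94 for Pdgfrb and 0.90 for Rgs5. The libraries share the ages and the treatment, so r measures likeness of pattern only. None of the 8 genes stayed among the first 8 when Spearman's rho was used.

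The next comparison asked the same of 18-month-old retinas, and there the contractile genes showed no such difference. Acta2 measured 2.92 and 2.76 FPKM in 18mo control and 3.84 and 3.54 FPKM in 18mo IOP, 1.30-fold higher and without overlap. Tagln measured 3.37 and 2.63 FPKM in the controls against 2.92 and 3.16 FPKM after IOP, with the groups overlapping. Myl9, with 12.7 and 8.87 FPKM against 10.5 and 10.6 FPKM, overlapped as well, and so did Des, with 0.448 and 0.357 FPKM against 0.435 and 0.441 FPKM. Cnn1 was listed at 0.092 and 0 FPKM in the controls and at 0.037 and 0.221 FPKM in IOP, from 0 to 26 reads.

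Myh11 and Mylk lay lower in the treated eyes at 18mo. Myh11 read 0.968 and 1.05 FPKM in 18mo control and 0.917 and 0.442 FPKM in 18mo IOP, with the higher IOP library just under the lower control. Mylk read 15.7 and 19.9 FPKM in the controls against 13.4 and 9.41 FPKM after IOP, 1.56-fold higher in control. Pdgfrb was higher in IOP, with 3.38 and 3.04 FPKM in control against 5.06 and 4.52 FPKM, a 1.495-fold difference without overlap. Rgs5 overlapped, with 25.1 and 30.3 FPKM in the controls against 39.6 and 28.0 FPKM after IOP, and so did Cspg4, with 0.295 and 0.324 against 0.344 and 0.28 FPKM. Thus 2 of 10 members were higher and 2 lower without overlap. Of all 20302 genes, 6099 were higher and 1826 lower without overlap, so nothing is read from the members' count.

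None of the 7 tested members was called in either direction by limma, where 0.124% of 13731 genes were called. At an unadjusted p under 0.05 it was 1 of 7, where 9.45% of all genes were, and voom on recovered reads called none. The background is 16 genes called higher and 1 lower, and it fell to 0 when either 18mo control library or any of the 4 libraries of 3mo retinas was left out, to 6 higher and 0 lower without 18mo IOP replicate 2, and rose to 140 higher and 4 lower without 18mo IOP replicate 1 and to 298 higher and 8 lower with the crossed replicate block, a pairing chosen after the data were seen. Log2 fold changes of the 7 ran from -0.63 ± 0.34 for Mylk to 0.51 ± 0.19 for Pdgfrb, with a median of 0.03 beside 0.09 over all genes. Nor was a gene called among 17 tested of the other contractile list, 11 of the other pericyte list, 8 regulators or 12 endothelial genes. The smallest p-values in the first of these were those of Tagln2 (log2 fold change 1.53 ± 0.33, adjusted p = 0.127, limma) and Prkg1, the cGMP-dependent kinase of smooth muscle relaxation (0.86 ± 0.19, adjusted p = 0.148, limma). Melanin pigment sums were 4.97 and 0.194 FPKM in 18mo control and 1.12 and 0.217 FPKM in 18mo IOP, and fibroblast sums between 3.71 and 8.67 FPKM over the 4 libraries of 18mo retinas. Of 6 glial genes tested, Gfap was called higher (3.37 ± 0.40, adjusted p = 0.0443, limma). That call was lost with a pseudocount of 0.1, with no filter, with median-of-ratios or quantile scaling, with voom, with only the groups compared, with the replicate block, and without either 18mo control or any 3mo library, while the log2 fold change stayed between 2.64 and 4.10 and the adjusted p ran from 0.000862 to 0.311. Blood genes summed to 166 and 426 FPKM in 18mo control and to 54.3 and 44.3 FPKM in 18mo IOP, without overlap and with none of 5 called. Endothelium summed to 82.3 and 85.8 FPKM in 18mo control and to 117 and 108 FPKM in 18mo IOP, without overlap, as Pdgfrb did. Glial genes summed to 1200.2 and 936 FPKM against 1378 and 1280 FPKM, and rod genes to 17857 and 15879 FPKM against 12116 and 14621 FPKM, both without overlap. The part of these cells in the levels of Pdgfrb, Myh11 and Mylk was not tested. In the other lists (fibroblast, skeletal muscle, pigment epithelium, melanin pigment, lens, corneal and rod genes) none was called.

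The difference of the IOP response between the ages was -3.21 ± 0.56 on the log2 scale for Acta2, -3.18 ± 0.55 for Tagln, -2.52 ± 0.64 for Myh11 and -2.18 ± 0.61 for Myl9, the negative sign meaning a smaller response at 18mo. It was -0.87 ± 0.48 for Mylk, 0.28 ± 0.26 for Pdgfrb and -0.20 ± 0.33 for Rgs5. By limma 0 of 7 were called by adjusted p, as were 0 of 13731 genes (0%), while at an unadjusted p under 0.05 it was 4 of 7 members and 1.59% of all genes, and voom called none of the members. Without 3mo IOP replicate 2, Acta2 and Tagln were called lower. In the other contractile list the smallest p-values belonged to Smtn, smoothelin (-1.88 ± 0.45, adjusted p = 1.00, limma), and Tpm2 (-2.46 ± 0.65, adjusted p = 1.00, limma).

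**Figure D3:**
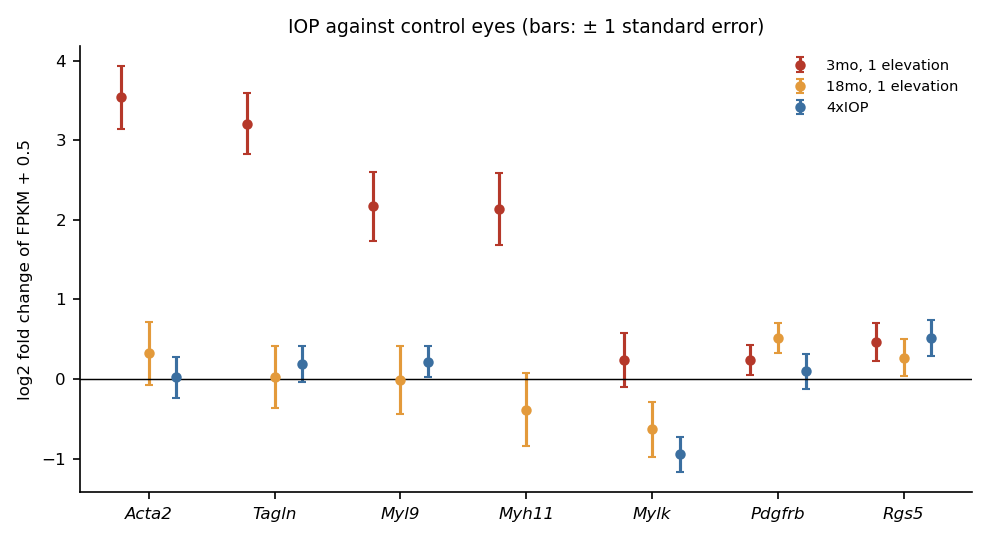
Log2 fold change of FPKM + 0.5 between IOP and control eyes (points) with 1 standard error (bars) for the members tested, at 3mo, at 18mo and after repeated elevation (4xIOP, where Myh11 was not tested). Acta2, Tagln, Myl9 and Myh11 lie between 2.14 and 3.54 at 3mo and between -0.38 and 0.33 at 18mo.

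After 4 elevations, Acta2 and Tagln overlapped with their controls. Acta2 measured 0.972 and 0.544 FPKM in 4xIOP control and 0.869 and 0.656 FPKM in 4xIOP, a ratio of 1.01 with the IOP libraries inside the range of the controls. Tagln measured 1.34 and 0.943 FPKM against 1.49 and 1.23 FPKM and overlapped. Myl9 measured 3.67 and 3.84 FPKM against 4.13 and 4.77 FPKM, 1.19-fold higher without overlap. Cnn1 held 2 reads in each control and 3 and 4 reads in the IOP libraries, at or near the limit of measurement, so no fold is given. Des read 0.091 and 0.124 FPKM against 0.396 and 0.077 FPKM, set apart by 4xIOP replicate 1 alone.

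Mylk and Myh11 were lower in 4xIOP retinas. Mylk measured 5.73 and 8.49 FPKM in 4xIOP control and 3.67 and 3.12 FPKM in 4xIOP, 2.10-fold higher in control and without overlap. Myh11 measured 0.273 and 0.289 FPKM in control and 0.215 and 0.058 FPKM in 4xIOP, also without overlap, though replicate 2 rested on 16 reads. Rgs5 was higher, with 11.04 and 9.01 FPKM in control and 14.1 and 14.8 FPKM in 4xIOP, 1.44-fold. Pdgfrb, with 1.69 and 2.15 FPKM against 2.41 and 1.78 FPKM, and Cspg4, with 0.094 and 0.159 against 0.135 and 0.053 FPKM, overlapped. With Cnn1 counted, 3 of 10 members were higher and 2 lower without overlap. Of all 19593 genes, 5503 were higher and 2292 lower without overlap, so nothing is read from the members' count.

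By limma 0 of the 6 members tested here were called in either direction, where 6.15% of 13718 genes were called. At an unadjusted p under 0.05 it was 2 of 6 members and 15.4% of all genes, and voom on recovered reads called 1 member, Mylk, lower, as did the fit without 4xIOP control replicate 1. The log2 fold change of Mylk was -0.95 ± 0.22, just short of the fold required, and that of Rgs5 0.51 ± 0.23. The other 4 lay between 0.02 and 0.22. Of the other contractile genes 15 were tested and 2 called higher, Tagln2 (log2 fold change 2.56 ± 0.19, adjusted p = 2.36e-06, limma), at 0.713 and 0.842 FPKM in control and 6.72 and 7.31 FPKM in 4xIOP, and Cnn2, a calponin of non-muscle cells (1.36 ± 0.24, adjusted p = 0.0025, limma). Of 6 other pericyte genes tested, Mcam, an adhesion molecule of pericytes and endothelium, was called higher (1.17 ± 0.21, adjusted p = 0.00243, limma). Of 6 regulators tested, Mef2c, a transcription factor of muscle and neurons, was called lower (-1.05 ± 0.26, adjusted p = 0.0241, limma). Beside these, endothelium summed to 37.0 and 44.2 FPKM in control and 70.1 and 73.8 FPKM in 4xIOP, with Kdr, the VEGF receptor 2, called higher of 11 tested (1.17 ± 0.27, adjusted p = 0.0151, limma). Lens genes summed to 4.97 and 0.774 FPKM in control and to 53.9 and 113 FPKM in 4xIOP, and all 7 tested were called higher. Pigment epithelium went from 33.2 and 43.4 FPKM to 7.63 and 12.4 FPKM, with 4 of 5 tested called lower, and the only melanin pigment gene tested, Dct, was called lower. Of 6 glial genes, Gfap (3.76 ± 0.24, adjusted p = 6.03e-07, limma) and the filament gene Vim (1.74 ± 0.30, adjusted p = 0.00191, limma) were called higher. Rod genes summed to 9855 and 10299.6 FPKM in control and to 4850 and 7276 FPKM in 4xIOP, with none of 7 called, and none was called of 4 fibroblast, 2 skeletal muscle and 4 blood genes. Among the genes named here, the calls of Tagln2 and Gfap held under every alternative run. Those of Kdr, Mef2c and Vim were lost without either 4xIOP control library, with adjusted p up to 0.720, 0.368 and 0.233 by limma, those of Kdr and Mcam without 4xIOP replicate 2, that of Mef2c without 4xIOP replicate 1 and that of Cnn2 without either 4xIOP library. With no filter, Kdr, Mef2c and Cnn2 were not called, with quantile normalization Cnn2 and Mcam were not, with a pseudocount of 1 Mcam was not, and with the length trend removed Mef2c was not. Of the lens genes Cryaa and Crybb2, and of the pigment epithelium genes Rpe65, were not called without 4xIOP replicate 2, and neither Rdh5 of pigment epithelium nor Dct was called without 4xIOP replicate 1. Over the alternatives, the log2 fold change of Rdh5 shrank to as little as -0.83 and that of Dct to -0.85, short of the fold required. The part of these tissues and cells in the levels of Mylk, Myh11 and Rgs5 was not tested. The tables were made apart, so no test was run between 4xIOP and the single-IOP groups.

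In the age comparison of untreated eyes, the pericyte genes were all higher at 18mo. Pdgfrb measured 0.523 and 0.443 FPKM in 3mo control and 3.38 and 3.04 FPKM in 18mo control, 6.64-fold higher. Rgs5 measured 5.90 and 5.57 FPKM against 25.1 and 30.3 FPKM, 4.83-fold higher, and Cspg4 0.084 and 0.089 FPKM against 0.295 and 0.324 FPKM, 3.58-fold higher. No 18mo library overlapped with a 3mo library in any of the 3, and replicate 1 was between 0.83 and 1.18 times replicate 2 in these groups. Mylk, with 7.86 and 3.89 FPKM at 3mo and 15.7 and 19.9 FPKM at 18mo, was 3.04-fold higher.

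The other contractile genes were higher at 18mo by less or from low counts. Des was 4.03-fold higher, from 0.10 to 0.40 FPKM in the mean, and Myh11 3.31-fold, from 0.30 to 1.01 FPKM. Myl9, Acta2 and Tagln were 1.65-fold, 1.45-fold and 1.38-fold higher. All of these were without overlap, but the lowest 18mo library of Myl9 (8.87 FPKM) lay close to the highest 3mo library (8.57 FPKM). Cnn1 overlapped.

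Thus 9 of 10 members were higher without overlap at 18mo, where 36.5% of 20302 genes were. By limma 3 of 7 tested members were called higher, Rgs5 (log2 fold change 2.17 ± 0.24), Pdgfrb (1.91 ± 0.19) and Mylk (1.59 ± 0.34), where 11.6% of 13731 genes were called higher. Myh11 (0.93 ± 0.46), Myl9 (0.72 ± 0.43), Acta2 (0.45 ± 0.40) and Tagln (0.38 ± 0.39) were not called. The median of the 7 was 0.93 beside 0.16 over all genes tested. Without 18mo control replicate 2, Mylk was no longer called, which left 2 members. The background of 1595 genes called higher moved as well. Of the 18mo controls, leaving out replicate 1 gave 932 and leaving out replicate 2 gave 610, and of the 3mo controls, leaving out replicate 1 gave 2624 and leaving out replicate 2 gave 738. With median-of-ratios scaling 1059 genes were called higher and 1968 lower, against 1595 and 1590. The libraries differ in how strongly short transcripts are represented against long ones. Over protein-coding genes detected in a library, the median FPKM of transcripts under 1000 bases was divided by that of transcripts of at least 4000 bases. This ratio was 1.89 and 4.70 in 3mo control and 1.28 and 1.21 in 18mo control. Rgs5, Pdgfrb and Mylk have transcripts of 4089, 5385 and 7775 bases. With each library's trend with transcript length removed, their log2 fold changes were 1.91, 1.54 and 1.14, all called, and Myl9 was called too.

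**Figure D4:**
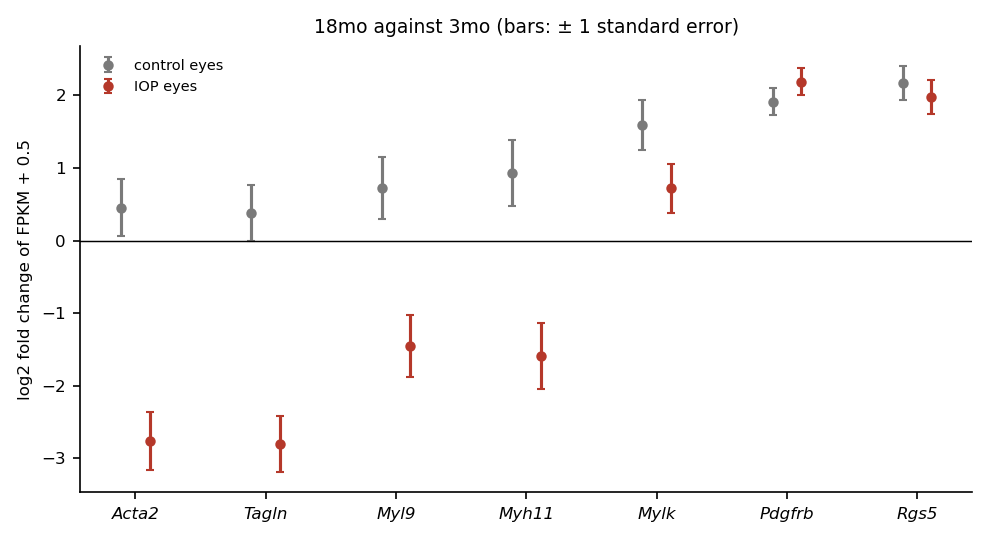
Log2 fold change of FPKM + 0.5 between 18mo and 3mo retinas (points) with 1 standard error (bars) for the 7 members tested, in control eyes (grey) and IOP eyes (red). Pdgfrb and Rgs5 lie between 1.91 and 2.19 in both, while Acta2, Tagln, Myl9 and Myh11 lie between 0.38 and 0.93 in control eyes and between -2.80 and -1.46 in IOP eyes.

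Some genes related to the pericyte members were higher at 18mo too. Of 11 other pericyte and mural genes tested, 5 were called higher and 1 lower. The largest changes were those of Rgs4, a relative of Rgs5 that neurons also express (log2 fold change -2.95 ± 0.26, adjusted p = 0.00265, limma), Abcc9, a subunit of the vascular KATP channel (1.79 ± 0.21, adjusted p = 0.00417, limma), Agtr1a, the angiotensin II receptor (1.51 ± 0.29, adjusted p = 0.00772, limma), and Mcam (1.48 ± 0.28, adjusted p = 0.00743, limma). Abcc9 measured 0.066 and 0.069 FPKM in 3mo control and 1.35 and 1.58 FPKM in 18mo control. The median of this list was 0.18 beside 0.16 over all genes.

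Among regulators and ligands, 4 of 8 tested were called higher at 18mo and none lower. Klf4, a zinc finger factor that represses contractile genes in smooth muscle, changed most (2.95 ± 0.32, adjusted p = 0.00332, limma). Pdgfb, the ligand of PDGFRβ, followed (1.74 ± 0.28, adjusted p = 0.00574, limma), then Srf, the factor of the CArG box (1.29 ± 0.31, adjusted p = 0.0141, limma), and Edn1, a constrictor of mural cells (1.198 ± 0.18, adjusted p = 0.00543, limma). Of 17 other contractile genes, 5 were called higher and 1 lower, with the largest changes in Myl6, the essential light chain (-1.42 ± 0.36, adjusted p = 0.0165, limma), Ppp1r12b, a subunit of myosin phosphatase (1.27 ± 0.27, adjusted p = 0.0102, limma), Flna, filamin A (1.24 ± 0.25, adjusted p = 0.00822, limma), and Smtn (1.13 ± 0.32, adjusted p = 0.0228, limma). None of these 4 genes was called with the length trend removed, or when replicate 2 of either the 3mo control or the 18mo control group was left out. The log2 fold change of Myl6 ran from -2.03 to -0.40 over the alternatives, with adjusted p up to 0.0827 by limma, and that of Smtn from 0.91 to 1.43, with adjusted p up to 0.130 by limma. Srf was not called without 3mo control replicate 2 or either 18mo control, Mcam without 18mo control replicate 2, Agtr1a without 18mo control replicate 1, and Agtr1a and Edn1 with a pseudocount of 1. Abcc9, Agtr1a and Pdgfb have low levels at 3mo, and their log2 fold changes reached 4.23, 5.45 and 3.93 with voom on recovered reads.

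Endothelial markers moved with the 3 pericyte members across age. The 12 genes summed to 19.2 and 15.3 FPKM in 3mo control and 82.3 and 85.8 FPKM in 18mo control, and 10 of 12 were called higher, led by Cldn5, a tight junction protein (3.19 ± 0.26, adjusted p = 0.00265, limma), and Flt1, the VEGF receptor 1 (2.61 ± 0.20, adjusted p = 0.00265, limma). The pericyte members summed to 6.51 and 6.10 FPKM against 28.8 and 33.6 FPKM. The sum of the 19 other pericyte and mural genes went the other way. It was 480 and 574 FPKM in 3mo control and 394 and 370 FPKM in 18mo control. Of these genes, Vtn alone had means of 469 and 339 FPKM. Pigment epithelium genes went the other way, from 183 and 229 FPKM to 24.9 and 16.4 FPKM, with 5 of 6 called lower, as did melanin pigment genes, with 6 of 6 called lower. In the remaining lists, 1 of 6 fibroblast, 1 of 4 skeletal muscle, 3 of 4 corneal and 1 of 7 rod genes were called lower, 1 of 5 blood and 2 of 6 glial genes higher, and none of 5 lens genes. The part of the vascular share of the tissue, or of the tissue taken with the retina, in the higher levels of the pericyte genes was not tested.

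In IOP eyes, the difference between ages split the members. Pdgfrb measured 0.649 and 0.669 FPKM in the 3mo eyes against 5.06 and 4.52 FPKM in the 18mo eyes, 7.27-fold higher, and Rgs5 was 4.113-fold and Cspg4 3.41-fold higher. Acta2 was 8.52-fold, Tagln 8.92-fold, Myh11 5.04-fold and Myl9 3.12-fold higher in 3mo IOP, and all 4 were without overlap. Cnn1 was 11.5-fold higher in 3mo IOP, also without overlap, and Des overlapped. Mylk was 1.68-fold higher at 18mo, without overlap. In all, 4 of the 10 members were higher and 5 lower at 18mo without overlap. Of all 20302 genes, 7014 were higher and 6080 lower without overlap. Of 7 tested members, 2 were called higher, where 10.2% of all genes were, and 4 were called lower, where 11.6% were. That background of 1407 higher and 1593 lower fell to 542 and 267 without 3mo IOP replicate 1 and to 401 and 321 without 3mo IOP replicate 2. The called log2 fold changes were 2.19 ± 0.19 for Pdgfrb, 1.97 ± 0.24 for Rgs5, -2.80 ± 0.39 for Tagln, -2.76 ± 0.40 for Acta2, -1.59 ± 0.46 for Myh11 and -1.46 ± 0.43 for Myl9. Without 3mo IOP replicate 1, and without 18mo IOP replicate 2, Myh11 and Myl9 were no longer called and 4 members were, and without 18mo IOP replicate 1 Myl9 alone was lost. With the length trend removed, Myl9 (-0.72) was not called either, and the other 5 kept their calls. With no filter on low values neither Myh11 nor Myl9 was called while Cnn1 was called lower, and with only the groups compared in the fit Myh11 was not called. This comparison shares its libraries with those above, so it is no independent set of values.

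In the same comparison, 3 of 17 other contractile genes were called higher and 2 lower, among them Tpm2 (-1.69 ± 0.46, adjusted p = 0.0226, limma) and Prkg1 (1.24 ± 0.19, adjusted p = 0.00565, limma). Of 11 other pericyte genes 4 were called higher and 1 lower, with Abcc9 at 2.01 ± 0.21 (adjusted p = 0.00211, limma) and Kcnj8, its partner in the KATP channel, at 1.44 ± 0.21 (adjusted p = 0.00464, limma). Of 8 regulators 4 were called higher, with Klf4 at 4.51 ± 0.32 (adjusted p = 0.00101, limma). All 6 melanin pigment genes tested were called lower, as were 3 of 6 fibroblast genes, and 11 of 12 endothelial genes were called higher. Without 3mo IOP replicate 1 neither Tpm2, at -0.84, nor Prkg1 was called, and Tpm2 was lost as well without either 18mo IOP library, with no filter and with only the groups compared, and Prkg1 with the length trend removed (0.73).

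Some members share their locus with another gene. Tagln overlaps Pcsk7, Des the non-coding Gm15179, and Mylk the non-coding E130310I04Rik and 1700119H24Rik, all on the opposite strand, and the libraries were strand-specific and counted by strand. Acta2 lies at chr19:34240336-34255373 (mm10) with a counted transcript of 2561 bases, Tagln at chr9:45929628-45936058 with 1579 bases, Myl9 at chr2:156775464-156781657 with 1077 bases and Rgs5 at chr1:169655501-169695813 with 4089 bases. Each is counted over the exons of a single isoform, so a shift between isoforms would show as a change of level. The coding parts of the muscle actins are alike, as are those of the regulatory light chains, and tags that map to more than 1 place were not counted, so the levels of Acta2 and Myl9 are uncertain to that degree.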

How the data were processed

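Per the labels and the study's methods, the authors aligned reads to mm10 with STAR 2.7.8a, used HOMER to count tags that mapped uniquely to exons, by strand and for 1 isoform per locus, and deposited FPKM, in a separate table for single and repeated IOP, with replicates not pooled. For their own tests they used DESeq2, listed in the submitters' processing notes with DESeq 1.24.0. The FPKM values times transcript length gave whole reads for 100% of the values checked (2717 to 3733 per library, within 0.05 reads), from which mapped tags were recovered.

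The members and all gene lists were chosen with earlier results of these data known. Genes whose mean over a table reached 0.5 FPKM (13731 and 13718) entered limma 3.58.1 in R 4.3.3 as log2(FPKM + 0.5), a scale that understates changes of low genes, with trended eBayes variances. The single-IOP table was modelled by its 4 groups (4 residual and 4.12 prior degrees of freedom) and the repeated-IOP table by its own (2 and 10.6). Benjamini-Hochberg adjustment ran over all genes tested. On simulated data with 200 changed genes and normal noise of the fitted spread, the fit found the changes it was given. Such data share the assumptions of the fit. They check its code only and do not show that calls hold with 2 libraries per group. Named are every member, the called genes of 13 other lists (at most 4 per comparison, by size, or the 2 smallest p-values where none was called, given here for the lists a result turns on) and the 8 genes most like Acta2. The 13 lists cover other contractile genes, other pericyte genes, regulators, endothelium, fibroblasts and sclera, skeletal muscle, pigment epithelium, melanin pigment, lens, corneal epithelium, blood, glia and rods. Same-numbered libraries of control and IOP eyes deviated in opposite senses (r = -0.28, -0.53 and -0.29), and the labels do not say that a number marks an animal, so libraries were not paired. Alternatives were other pseudocounts, filters, scalings, variance models, a length correction, voom on recovered reads, a replicate block and leaving out each library, and a crossed block added after seeing the data.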

Additional observations from a re-analysis of the deposited data

Results flagged for a closer look

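For Myh11, every 3mo IOP library lay above every 3mo control library, while every 18mo IOP library lay below every 18mo control library. The fitted difference of the responses was -2.52 ± 0.64 on the log2 scale, with 0 of 13731 genes called for that difference, so a difference between the ages is not shown. The highest 18mo IOP library (0.917 FPKM) lay just under the lowest 18mo control (0.968 FPKM). The same opposite directions were seen for Smtn, smoothelin (difference -1.88 ± 0.45, adjusted p = 1.00 by limma), and for the tropomyosin gene Tpm2 (-2.46 ± 0.65, adjusted p = 1.00 by limma), both of the other contractile genes. The opposite directions themselves were not tested. Samples that stand out could not be sought within groups of 2 libraries.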

How the results depend on the processing

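With 2 libraries per group, the calls at 3mo depend on single libraries. The number of members called in 3mo IOP against 3mo control was 2, and 0 with no filter, 0 with voom on recovered reads, 3 with the length trend removed, 4 with the crossed replicate block and 0 to 3 with a library left out. For the difference of the responses it was 0, and 0 to 2 with a library left out. For 4xIOP it was 0, and 1 (Mylk, lower) with a pseudocount of 0.1, median-of-ratios scaling, quantile normalization, the adjusted p alone or voom, and 0 to 1 with a library left out. In the other comparisons the count stayed within 1.5 times of the value reported. Over all genes, those called higher in 3mo IOP went from 78 to 3 with voom, 9 with no filter, 13 with quantile normalization, 20 with median-of-ratios scaling or the replicate block, 119 with the length trend removed and 298 with the crossed block. In 18mo IOP they went from 16 to 0 with voom, median-of-ratios, a pseudocount of 0.1, only the groups compared or the replicate block, to 1 with no filter, 3 with quantile normalization, 8 with the filter set at 2 FPKM, 39 with the length trend removed and 298 with the crossed block. In 4xIOP 748 higher and 95 lower became 500 and 142 with quantile normalization and 405 and 70 with the filter at 2 FPKM, where fewer genes are tested. In 18mo IOP against 3mo IOP 1593 lower became 974 with the length trend removed. By the adjusted p alone, 3667 were higher and 2630 lower in 18mo control, and 3154 and 2692 in 18mo IOP, against the 3mo group. The replicate block left the count at 2 for 3mo IOP and moved no count of members. Over 803 values of the members under alternatives, 741 either kept a call or stayed uncalled within 1 standard error. Another 31 stayed uncalled but moved further, 13 gained and 18 lost a call. No call reversed its direction, but uncalled values could change sign. The log2 fold change of Mylk in 3mo IOP, for example, went from 0.24 to -0.23 with a library left out. Sag, a rod gene of the lists, fell by 1.40 on the log2 scale with age and stood at 0.041 under quantile normalization. Scaling by median-of-ratios moved the median log2 fold change of all genes in 18mo control against 3mo control from 0.16 to 0.01, and in 3mo IOP against 3mo control from 0.13 to -0.05. Of the 8 genes most like Acta2, 0 stayed among the first 8 with Spearman's rho and 5 with the length trend removed. In the 150 bases nearest to the start, 0.916% of promoters held a CArG box. The causes of these changes were not tested. Cnn1, Des and Cspg4 have too few reads for a firm statement.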
